A study of Mus musculus with 4 samples.

Results

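A segment of mouse chromosome 6 was described gene by gene in embryonic stem cells (ESCs) of the *Bmal1* KO and WT genotypes. It was delimited by the rule that a feature carries a gene symbol, starts at or after position 70844000 and ends at or before position 88208000 of GRCm38, a span of 17.364 Mb. The rule gave 140 members of 17710 features with a symbol. The bounds and the members were chosen on the difference between KO and WT in these same libraries, so the values of the members below are a description, no p is given for any of them, and nothing is read from counts of calls among them. The annotation (GENCODE vM21) places 157 protein-coding genes within the bounds, of which 122 were among the listed features.

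RNA from 2 libraries of WT ESCs and 2 libraries of *Bmal1* KO ESCs was sequenced after removal of ribosomal RNA, and the deposited values are FPKM (fragments counted for a transcript, scaled to its length in kilobases and to the mapped fragments of the library). Both genotypes were undifferentiated mouse ESCs, which according to the study's methods were grown on gelatin-coated plates in serum with the cytokine LIF. The KO cells were made with CRISPR-Cas9 directed at *Bmal1* (*Arntl*), the gene of a core activator of the circadian clock, and the study describes a single KO line picked as a clone. Clone and genotype therefore cannot be told apart in these libraries, and differences between the 2 libraries of a group measure only the spread between those samples. Genomic DNA was not measured, so the number of copies of the segment in either line was not tested.

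Mouse ESCs renew themselves under LIF while they express *Pou5f1*, *Sox2* and *Nanog*, and cultured ESC lines are known to gain or lose whole chromosomes or parts of them. When a stretch of DNA is present in an extra copy, the RNA of many of its genes is usually higher by a factor near the copy ratio, and genes under feedback can deviate from that factor. The segment holds several genes that act on other genes or on metabolism. *Tcf7l1* encodes the main repressor among the TCF/LEF partners of β-catenin in ESCs, *Tet3* an oxidase of methylated cytosine, *Hk2* a hexokinase that starts glycolysis, and *Mthfd2* a mitochondrial enzyme of the folate cycle.

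The promoters of these 4 genes are shown because these regulators were all higher in KO. Each sequence is the 250 bases before a transcription start in RefSeq on GRCm38.p6, 5′ to 3′ on the minus strand, on which all 4 genes lie. Capitals mark the CCAAT box (CCAAT, or ATTGG on the other strand) and the GC box (GGGCGG, or CCGCCC on the other strand), motifs chosen after the sequences had been read. The canonical E-box CACGTG, the motif that BMAL1 binds together with CLOCK, would also be in capitals but has no match in these windows.
Tcf7l1, chr6:72789046-72789295: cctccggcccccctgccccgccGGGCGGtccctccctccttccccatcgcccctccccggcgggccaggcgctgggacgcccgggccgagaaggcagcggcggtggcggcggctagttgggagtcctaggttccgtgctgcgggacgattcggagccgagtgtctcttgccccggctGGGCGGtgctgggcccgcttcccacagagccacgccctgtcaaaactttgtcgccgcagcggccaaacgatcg
Hk2, chr6:82774455-82774704: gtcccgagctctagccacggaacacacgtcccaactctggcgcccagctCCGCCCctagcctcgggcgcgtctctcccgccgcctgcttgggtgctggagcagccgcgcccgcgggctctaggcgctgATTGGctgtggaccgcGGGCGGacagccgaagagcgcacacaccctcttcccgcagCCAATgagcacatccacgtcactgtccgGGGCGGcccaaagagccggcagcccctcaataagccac
Mthfd2, chr6:83317605-83317854: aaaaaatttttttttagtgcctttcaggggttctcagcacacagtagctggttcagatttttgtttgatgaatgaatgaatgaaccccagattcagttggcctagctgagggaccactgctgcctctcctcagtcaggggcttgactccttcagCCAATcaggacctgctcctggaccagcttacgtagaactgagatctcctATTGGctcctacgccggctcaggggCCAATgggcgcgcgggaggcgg
Tet3, chr6:83441679-83441928: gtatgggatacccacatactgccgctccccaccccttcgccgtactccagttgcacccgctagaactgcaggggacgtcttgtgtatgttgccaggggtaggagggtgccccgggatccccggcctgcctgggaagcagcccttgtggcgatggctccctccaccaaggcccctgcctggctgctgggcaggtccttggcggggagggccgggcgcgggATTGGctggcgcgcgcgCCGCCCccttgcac
The windows of *Tcf7l1*, *Hk2*, *Mthfd2* and *Tet3* held 0, 2, 3 and 1 CCAAT boxes and 2, 3, 0 and 1 GC boxes. Their GC content was 73.6%, 69.6%, 52.4% and 69.6%. Thus the window of *Mthfd2* had the lowest GC content, and the box counts differed among all 4 windows. *Mthfd2* alone lacked a GC box and *Tcf7l1* alone lacked a CCAAT box. The *Tet3* window lies within the deposited feature, at a start inside the gene.

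Of the 140 members, 117 had a RefSeq promoter, and 4 of these (3.42%) held CACGTG in the 250 bases before a start. The motif is its own reverse complement, so the count covers both strands. Over all 27025 genes with a promoter in the table the share was 6.86%. A CCAAT box was found for 43.6% of the members and 37.5% of all genes, and a GC box for 59% and 35.4%. The 27025 genes include genes that are not among the listed features, so these shares compare unlike sets. The 4 windows around the E-box, in capitals, are given on the strand of each gene because they are the matches to the motif of the deleted factor.
Eva1a, chr6:82041545-82041574: tctcgcggcgccCACGTGgggaagggggcg
C87436, chr6:86438340-86438369: gggcccttggcgCACGTGggctgatctgac
Pcbp1, chr6:86526389-86526418: gggttaacaaaaCACGTGctccctctcaat
1600020E01Rik, chr6:86527327-86527356: acaaaatggcgaCACGTGtcgccatcgaaa
The log2 fold changes of these 4 members were 1.91, 0.95, 0.82 and 1.47. A match of letters is a description and not a binding site.

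Before the members are described, the libraries were checked against their labels. Pluripotency markers were high in all 4 libraries, with *Pou5f1* between 1389 and 1620 FPKM and *Dppa5a* between 2881 and 3045 FPKM. However, 5 of the 9 tested marker features (*Nanog*, *Sox2*, *Zfp42*, *Klf4* and *Tdgf1*) had both KO values below both WT values. This order was found for 31.7% of all tested features. *Klf4* fell from 58.4 and 55.0 FPKM to 41.3 and 40.9 FPKM (log2 fold change -0.46, adjusted p = 0.0177, limma with Benjamini-Hochberg adjustment). In the same test *Tdgf1* fell by 0.36 (adjusted p = 0.0322). The opposite order was found for 1 of the 9, a feature of *Esrrb* with 175 and 147 FPKM in WT and 202 and 180 FPKM in KO. Of 5 fibroblast markers, *Col1a1*, *Col1a2*, *Col3a1* and *Dcn* were at most at 0.217 FPKM, and *Thy1* was between 1.54 and 2.73 FPKM. FPKM of *Arntl* was 6.05 and 6.29 in WT and 5.95 and 5.92 in KO. Both KO values were below both WT values, but the log2 fold change of the edited gene was only -0.055. Protein is not measured by FPKM, and the study reports a deletion in the gene and loss of BMAL1 protein in the KO line. Of 4 Y-linked genes, 3 differed much more between the groups. *Eif2s3y* was 1.40 and 2.04 FPKM in WT and 44.6 and 53.1 FPKM in KO, and *Ddx3y* was 0.235 and 0.403 against 16.4 and 20.6 FPKM. *Uty* was higher in KO as well, and *Kdm5d* was at most at 0.0168 FPKM in any library. The WT and KO libraries thus also differed at these genes, and what this has to do with the results below was not tested.

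Most members of the segment were higher in *Bmal1* KO ESCs, by a factor somewhat under 2. Of the 102 members with a mean FPKM of at least 0.5, the median log2 fold change was 0.88 (a 1.84-fold ratio, interquartile range 0.71 to 1.13 on the log2 scale, over log2(FPKM + 0.1)), and 97 lay above 0. For both KO libraries to exceed both WT libraries was the rule in the segment, where 92 of the 102 tested members did so. Over all 12990 tested features the same was true of 27%. The opposite order, both KO below both WT, was found for 5 members, *Mrpl35*, *Slc4a5*, *Copg1*, *H1fx* and *Rpn1*, and for 31.7% of tested features. At an adjusted p under 0.05 and more than 2-fold higher, the threshold of the study, limma with Benjamini-Hochberg adjustment called 34 members, against 2.72% of all tested features. Without the 2-fold requirement it called 78 members higher, against 6.85%, and 0 lower, against 5.6%. The bounds were set on this contrast.

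The 38 members under the filter were low in all 4 libraries, and the highest of them had a mean of 0.494 FPKM. Of the tested members, 8 had a mean under 0.5 FPKM in WT and passed the filter through their KO level, whereas 0 had a KO mean under 0.5. Counting all 140 members, 108 were higher and 5 were lower in both KO libraries than in both WT libraries. Over all features with a symbol outside the segment, tested or not, 25.2% were higher in this sense. In bulk RNA, more cells with a given RNA and more RNA per cell cannot be told apart.

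The level of the segment was nearly the same in the 2 libraries of each genotype. The median log2 ratio over tested members was 0.89 for KO replicate 1 against WT replicate 1, 0.90 for KO 1 against WT 2, 0.85 for KO 2 against WT 1 and 0.86 for KO 2 against WT 2. Summed over the members, FPKM was 4440 and 4475 in WT and 7593 and 7254 in KO. The members contributed 0.612% and 0.604% of the summed FPKM of features with a symbol in WT, and 1.07% and 1.05% in KO. The rest of chromosome 6, with 443 tested features with a symbol, had a median of -0.01, and the 11399 on other chromosomes had a median of -0.02. Tested features with a symbol outside the segment were also cut, along each chromosome, into 107 blocks of 102 consecutive features. Chromosome Y, the mitochondrial genome and incomplete blocks at chromosome ends were left out. The block medians lay between -0.16 and 0.14.

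**Figure D1:**
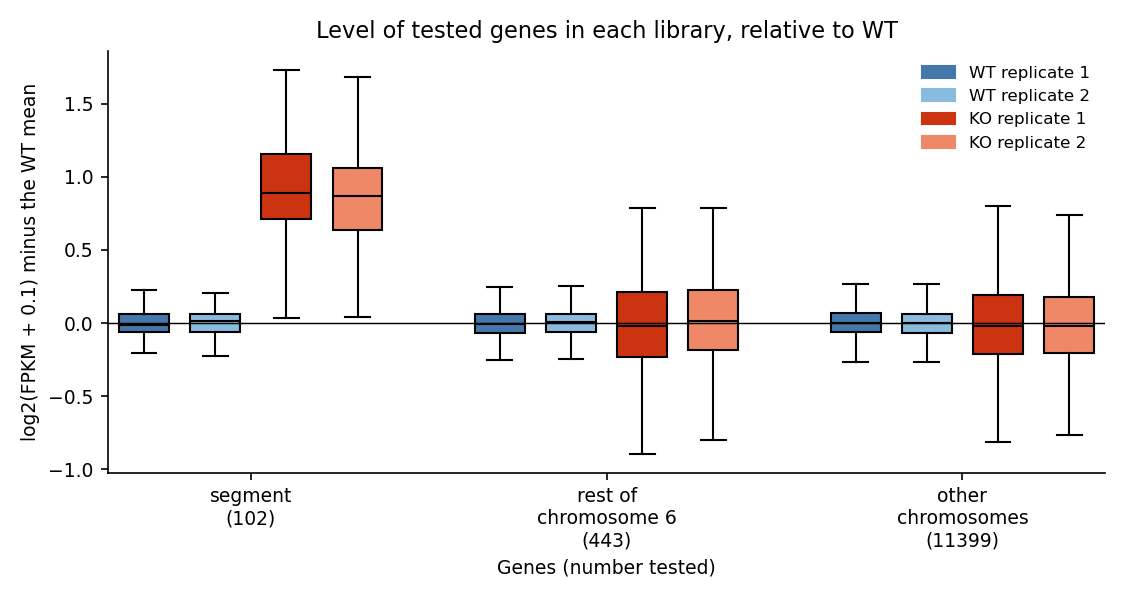
Boxes show log2(FPKM + 0.1) of tested genes with a symbol minus the mean of the 2 WT libraries, for the 102 segment members, the 443 genes on the rest of chromosome 6 and the 11399 genes on other chromosomes (line, median; box, quartiles; whiskers, the most distant value within 1.5 box lengths; values beyond are not drawn). In the segment both KO boxes lie above both WT boxes, with medians near 0.9, while the medians of the other genes lie near 0 in all 4 libraries.

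From the proximal end, the segment opened with *Eif2ak3*, which encodes PERK, a kinase of the endoplasmic reticulum that slows translation under stress. Its FPKM was 3.49 and 3.06 in WT and 6.82 and 6.52 in KO, a log2 fold change of 1.01 (standard error 0.12). *Foxi3*, a forkhead factor of the ear and skin appendages, followed with 0.512 and 0.457 FPKM in WT and 1.62 and 1.76 FPKM in KO. *Smyd1*, a methyltransferase of muscle, had 0.970 and 1.05 FPKM in WT against 3.16 and 2.75 in KO. Both tissue-restricted genes were low in ESCs and had larger log2 fold changes, 1.62 and 1.46, than the more strongly expressed genes around them. *Rmnd5a*, a subunit of a ubiquitin ligase, and *Chmp3*, a component of the ESCRT-III machinery of membrane scission, had log2 fold changes of 0.83 and 1.01. *Kdm3a*, a demethylase of histone H3 lysine 9, went from 19.5 and 20.8 FPKM in WT to 34.5 and 37.7 FPKM in KO (log2 fold change 0.84, standard error 0.09). *Cd8a* and *Cd8b1*, the T cell co-receptor genes between *Krcc1* and *Rmnd5a*, were at most at 0.0346 FPKM in any library.

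A pair of neighbouring genes within this first stretch stayed near their WT level. *Reep1*, which shapes the membrane of the endoplasmic reticulum, had 1.47 and 1.54 FPKM in WT and 1.72 and 1.48 FPKM in KO, so that the groups overlapped. Next to it, *Mrpl35*, a protein of the mitochondrial ribosome, had 12.7 and 12.6 FPKM in WT and 10.7 and 12.2 FPKM in KO, with both KO values below both WT values. The following gene, *Immt*, which encodes a core protein of the mitochondrial cristae junction, was 37.9 and 43.8 FPKM in WT and 84.8 and 95.8 FPKM in KO (log2 fold change 1.14, standard error 0.11). Values on both sides of *Reep1* and *Mrpl35*, namely *Kdm3a* and *Immt*, were therefore higher in both KO libraries while these 2 were not.

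From *Immt* to *Ggcx* all 10 tested members were higher in both KO libraries, with a median log2 fold change of 1.04. *Polr1a*, the largest subunit of RNA polymerase I, had 15.6 and 14.8 FPKM in WT and 34.3 and 33.0 FPKM in KO. *Ptcd3*, a mitochondrial translation factor, had a log2 fold change of 0.69, and *St3gal5*, which makes the ganglioside GM3, one of 0.87. *Vamp8*, a SNARE of late endosomes, had 8.61 and 7.31 FPKM in WT and 15.2 and 15.6 FPKM in KO. *Vamp5*, its neighbour, was at most at 0.0896 FPKM. *Ggcx*, the vitamin K-dependent carboxylase, had a log2 fold change of 1.15.

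*Mat2a*, which makes the methyl donor S-adenosylmethionine, was 136 and 139 FPKM in WT and 185 and 189 FPKM in KO. Its log2 fold change of 0.44 (standard error 0.07) was below the median of the segment although its libraries agreed closely within each group. *Particl*, a non-coding RNA that shares the coordinates of *Mat2a* on the other strand, had 2.47 and 2.60 FPKM in WT and 4.96 and 3.96 FPKM in KO, and the split of reads between such pairs is uncertain. *Retsat*, a reductase of retinol, and *Tgoln1*, a protein of the trans-Golgi network, share coordinates too and had log2 fold changes of 1.04 and 0.88. Across the segment 36 members share their coordinates with another feature, in 16 groups, and 29 of these members were tested.

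*Tcf7l1* had 19.6 and 17.8 FPKM in WT and 29.8 and 26.0 FPKM in KO. Both KO libraries were above both WT libraries, and the log2 fold change of 0.57 (standard error 0.10, a 1.49-fold ratio of means) was below the median of the segment. Its antisense partner *Gm15401*, listed with the same coordinates, was at most at 0.0947 FPKM in any library. Further on, *Tmsb10*, which encodes an actin-binding thymosin and was the second most abundant member in WT, had 968 and 1036 FPKM in WT and 1824 and 1736 FPKM in KO. *Suclg1*, a subunit of succinyl-CoA ligase in the citric acid cycle, had 43.3 and 40.6 FPKM in WT and 79.8 and 82.6 FPKM in KO.

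Between *Suclg1* and *Gcfc2*, 8.65 Mb apart, no tested member was found. Beyond this gap the members were again higher, and the first 2, *Gcfc2* and *Mrpl19*, had log2 fold changes of 1.13 and 0.86. The median was 0.88 for the 31 tested members from *Eif2ak3* to *Suclg1* and 0.90 for the 64 from *Gcfc2* to *Cnbp*. *Pole4*, a small subunit of DNA polymerase ε, had 45.0 and 49.2 FPKM in WT and 80.1 and 101 FPKM in KO.

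*Hk2* had 30.7 and 29.5 FPKM in WT and 73.5 and 69.2 FPKM in KO. This was a 2.37-fold ratio of means and a log2 fold change of 1.24 (standard error 0.08), the largest among the 44 tested members with at least 10 FPKM in WT. In each of the 4 comparisons of a KO with a WT library, *Hk2* lay above the median of the segment.

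All tested members of a dense group from *Aup1* to *Dctn1* were higher in both KO libraries. *Aup1*, a protein of lipid droplets and protein quality control, had a log2 fold change of 1.14, and *Htra2*, a mitochondrial protease that shares its coordinates, one of 0.57. *Pcgf1*, which defines a variant of Polycomb repressive complex 1, had 8.12 and 6.47 FPKM in WT and 14.0 and 13.9 FPKM in KO. *Mogs*, the first glucosidase of N-glycan trimming, had a log2 fold change of 1.22, *Ino80b*, a subunit of the INO80 chromatin remodeller, one of 0.91, and *Dctn1*, the large subunit of dynactin, one of 0.69. *Dok1*, an adaptor of tyrosine kinases just before *Aup1*, had one of 1.38. A feature listed under both *Ccdc142* and *Mrpl53* had a log2 fold change of 0.98. *Lbx2*, a homeobox gene in this group, was listed at 0 in both WT libraries and had 0.408 and 0.363 FPKM in KO, for which no fold change is given.

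*Slc4a5*, a sodium bicarbonate cotransporter, was the tested member with the lowest log2 fold change. Its FPKM was 0.818 and 0.767 in WT and 0.586 and 0.554 in KO (log2 fold change -0.41, standard error 0.25). The next gene was *Mthfd2*, with 60.5 and 61.9 FPKM in WT and 99.8 and 107 FPKM in KO (log2 fold change 0.76, standard error 0.08, a 1.69-fold ratio of means). *Mob1a*, an activator of the LATS kinases of the Hippo pathway, was 9.995 and 10.04 FPKM in WT and 19.5 and 20.6 FPKM in KO. *Bola3*, which helps to deliver iron-sulphur clusters in mitochondria, had a log2 fold change of 0.55.

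*Tet3* was low in these cells, with 0.825 and 0.573 FPKM in WT and 1.72 and 1.51 FPKM in KO. Its log2 fold change was 1.12 (standard error 0.24), and this standard error was larger than that of *Hk2*. The log2 fold change of *Tet3* was 0.62 with a pseudocount of 1, 1.34 without WT replicate 1 and 0.89 without WT replicate 2. Its antisense partner *B230319C09Rik* was listed at 0 in 3 libraries. *Dguok*, the mitochondrial deoxyguanosine kinase, was next with a log2 fold change of 0.62, and *Stambp*, a deubiquitinase of endosomes, had one of 1.27.

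*Vax2*, a homeobox gene that patterns the ventral eye, stood apart from all other members. It had 0.592 and 0.783 FPKM in WT and 7.01 and 6.32 FPKM in KO, a 9.69-fold ratio of means and a log2 fold change of 3.11 (standard error 0.18). *Vax2os*, its antisense RNA with the same listed coordinates, had 2.13 and 2.25 FPKM in WT and 6.58 and 5.97 FPKM in KO (log2 fold change 1.48, standard error 0.13). Whether the counting used strand is not given in the sources used here, so reads of *Vax2* and *Vax2os* may not be separated. The nearest tested members on either side, *Stambp* and *Tex261*, had log2 fold changes of 1.27 and 0.70.

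*Nagk*, a kinase that salvages N-acetylglucosamine, had 4.82 and 4.64 FPKM in WT and 11.1 and 10.4 FPKM in KO. Directly beside it, *Paip2b*, an inhibitor of the poly(A)-binding protein, had 22.3 and 22.6 FPKM in WT and 23.0 and 23.1 FPKM in KO. Both KO values of *Paip2b* were above both WT values, but the log2 fold change was only 0.04 (standard error 0.08). *Zfp638*, a zinc finger protein, had a log2 fold change of 0.57, *Exoc6b*, a subunit of the exocyst, one of 1.01, and *Spr*, which completes the synthesis of tetrahydrobiopterin, one of 1.16. *Spr* was 45.4 and 37.8 FPKM in WT and 99.2 and 86.6 FPKM in KO. *Rab11fip5*, an effector of recycling endosomes, was low, with 0.753 and 0.778 FPKM in WT and 1.46 and 1.26 FPKM in KO. *Emx1* and *Cyp26b1*, genes of the forebrain and of retinoic acid breakdown, were at most at 0.125 FPKM.

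Among the 10 tested members from *Smyd5* to *C87436* all were higher in both KO libraries, and their median was 0.86. *Smyd5*, a lysine methyltransferase, had a log2 fold change of 0.91. *Cct7*, a subunit of the cytosolic chaperonin that shares the listed coordinates of *Smyd5*, had 182 and 176 FPKM in WT and 340.0 and 322 FPKM in KO. *Snrpg*, a core protein of the spliceosomal snRNPs, was the most abundant member in WT, with 1154 and 1070.5 FPKM there and 2039.8 and 1746 FPKM in KO. *Tia1*, an RNA-binding protein of stress granules, had 4.53 and 5.10 FPKM in WT and 11.8 and 13.3 FPKM in KO, a log2 fold change of 1.36. *Pcyox1*, an oxidase of prenylated cysteine, had one of 1.05.

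The next 10 tested members, from *2310040G24Rik* to *Nfu1*, were likewise all higher in both KO libraries, with a median of 0.98. The unnamed locus *2310040G24Rik* had 2.43 and 2.04 FPKM in WT and 7.63 and 7.38 FPKM in KO. *Pcbp1*, an RNA-binding protein encoded by a single exon, had 211 and 200.1 FPKM in WT and 379 and 349 FPKM in KO, and *1600020E01Rik*, with which it shares coordinates, had 4.35 and 5.42 against 12.5 and 14.8 FPKM. Their log2 fold changes of 0.82 and 1.47 differed. *Mxd1*, an antagonist of MYC, had one of 1.15, *Anxa4*, a calcium-dependent membrane-binding protein, one of 1.32, *Aak1*, a kinase of clathrin adaptors, one of 0.71, and *Nfu1*, an iron-sulphur cluster scaffold of mitochondria, one of 1.03. Towards the distal end *Gfpt1*, the entry enzyme of the hexosamine pathway, was 3.49 and 3.51 FPKM in WT and 5.68 and 6.06 FPKM in KO.

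**Figure D2:**
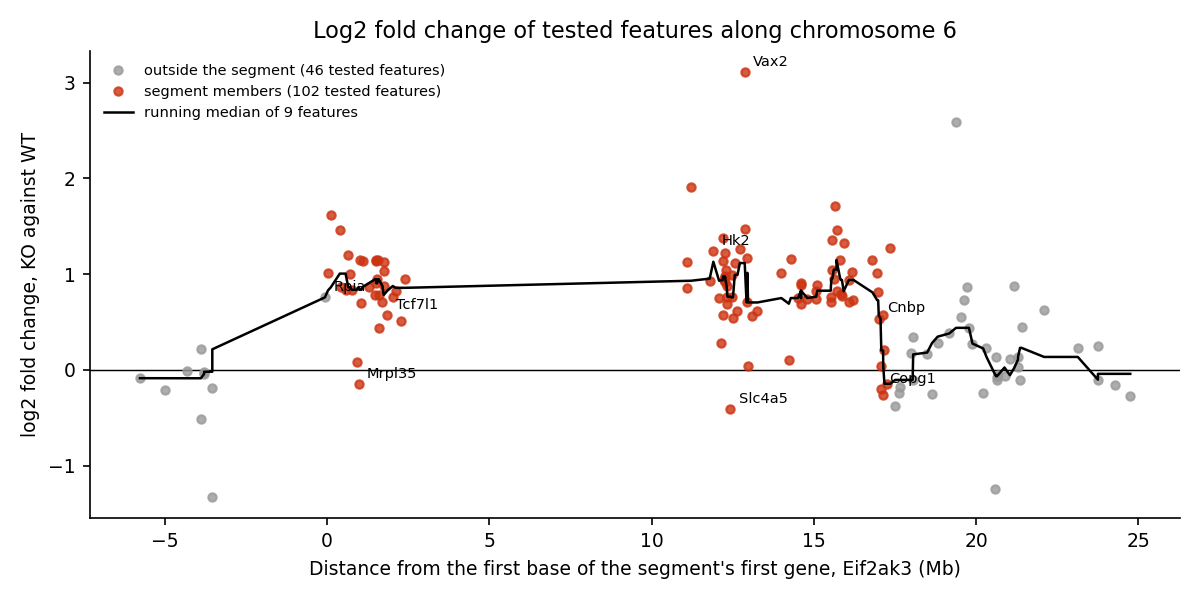
Each point is the log2 fold change (KO over WT) of a tested feature with a symbol, at the distance in Mb of its midpoint from the first base of *Eif2ak3* (red, 102 segment members; grey, 46 features outside; black line, running median of 9 features). Members lie mostly between 0.5 and 1.3 on both sides of the gene-poor gap, *Vax2* lies at 3.11, and the running median returns towards 0 at *Copg1*, before the distal bound.

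The step at the proximal edge did not fall exactly at the bound. The 10 tested features inside it had a median log2 fold change of 0.93 and the 10 outside one of -0.06, a step of 1.00. However, the nearest feature outside, *Rpia*, lay 52.3 kb before *Eif2ak3* and differed between the genotypes by about as much as the members did. *Rpia* encodes an isomerase of the pentose phosphate pathway and had 3.45 and 3.29 FPKM in WT and 5.87 and 5.66 FPKM in KO (log2 fold change 0.76). The next tested feature outward, *Serbp1*, which encodes an mRNA-binding protein, was 3.39 Mb further away and had a log2 fold change of -0.19. *Il12rb2*, a cytokine receptor chain that shares the listed coordinates of *Serbp1*, had one of -1.32, and the split of reads between the pair is uncertain. Further out, *Gadd45a*, a stress-response gene, had a log2 fold change of -0.02 and the unnamed locus *E230016M11Rik* one of -0.04. The position of the proximal step can thus be placed only within the interval between *Serbp1* and *Rpia*.

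At the distal end the members fell back to their WT level before the bound was reached. With the bound as the edge, the 10 features inside had a median of 0.37 and the 10 outside one of 0.03, a step of 0.34. It was 0.19 with a pseudocount of 1, 0.16 without KO replicate 2 and 0.22 without KO replicate 1. Gene by gene, *Rab43*, a small GTPase, had a log2 fold change of 1.02, *Isy1*, a splicing factor, one of 0.81 and *Cnbp*, a nucleic acid-binding zinc finger protein, one of 0.54. FPKM of *Cnbp* was 221 and 243 in WT and 315 and 359 in KO. The following gene, *Copg1*, a subunit of the COPI coat, had 53.3 and 51.0 FPKM in WT and 46.2 and 44.6 FPKM in KO, a log2 fold change of -0.20.

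*Cnbp* and *Copg1* are separated by 36.6 kb. Taking this interval as the edge, a choice made after the values were seen, the 10 tested features up to *Cnbp* had a median of 0.87 and the 10 from *Copg1* on a median of -0.16, a step of 1.04. The 7 tested members from *Copg1* to *Gata2* had a median of 0.04. *Hmces*, a protein that shields abasic sites in DNA, was 159 and 176 FPKM in WT and 171 and 174 FPKM in KO, and the linker histone gene *H1fx* was 91.8 and 95.6 against 73.2 and 83.1 FPKM. *Rab7*, a GTPase of late endosomes, had a log2 fold change of 0.20, and *Rpn1*, a subunit of the oligosaccharyltransferase, one of -0.14. *Gata2*, a factor of blood stem cells, had a log2 fold change of 1.27 at a low level, with 0.718 and 0.513 FPKM in WT and 2.01 and 1.28 FPKM in KO. Just outside the bound, *Eefsec* and *Ruvbl1*, the selenocysteine elongation factor and an AAA ATPase of chromatin complexes, had log2 fold changes of -0.37 and -0.24. *Sec61a1*, the channel of the endoplasmic reticulum, was at -0.18, *Abtb1* at 0.18 and *Mcm2*, a subunit of the replicative helicase, at -0.10.

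**Figure D3:**
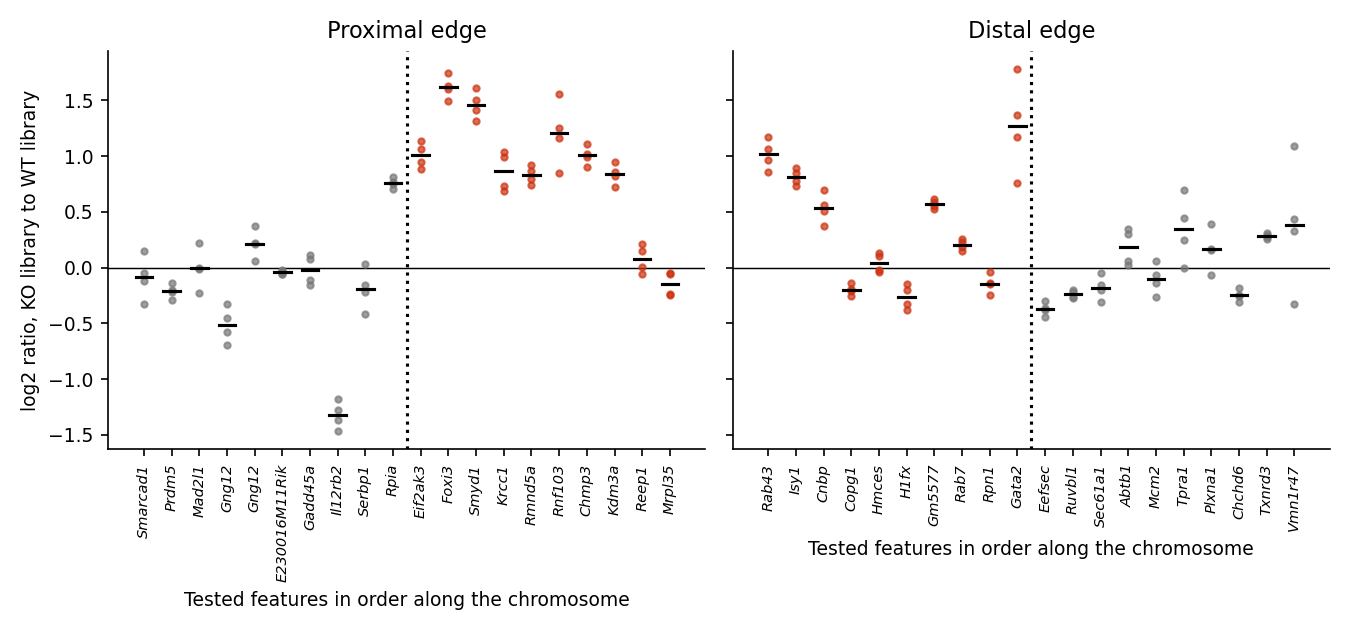
Points are the 4 log2 ratios of a KO to a WT library and bars the log2 fold change, for the 10 tested features inside (red) and outside (grey) each bound, in order along the chromosome; dotted lines mark the bounds. At the proximal edge *Rpia* lies with the members at 0.76, and at the distal edge the values drop from 0.54 at *Cnbp* to -0.20 at *Copg1*, inside the bound.

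From *Eif2ak3* to *Cnbp* the members were alike in most cases. Of 95 tested members in that stretch, 78 had a log2 fold change between 0.5 and 1.3, 7 were below (*Reep1*, *Mrpl35*, *Mat2a*, *M1ap*, *Slc4a5*, *Paip2b* and *Npm3-ps1*) and 10 above (*Foxi3*, *Smyd1*, *Eva1a*, *Dok1*, *Vax2*, *Vax2os*, *Tia1*, *2310040G24Rik*, *1600020E01Rik* and *Anxa4*). The limits were set after the values were seen. Of the 7 below, *Mat2a*, *Paip2b* and *Mrpl35* were above 10 FPKM in WT. Those above were all under 10 FPKM in WT, from *Eva1a* at 0.292 to *Anxa4* at 7.46 FPKM. Among them, *Eva1a* and *Foxi3* (0.485 FPKM in WT) were under 0.5 FPKM in WT and passed the filter only through their KO level. *Eva1a*, a protein of lysosomes and the endoplasmic reticulum, had 0.284 and 0.300 FPKM in WT and 1.48 and 1.28 FPKM in KO. In all 4 comparisons of a KO with a WT library, 31 of the 102 tested members lay above the segment median, 31 lay below it, and 40 lay on both sides.

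Fold change varied with expression level. The 44 tested members with at least 10 FPKM in WT had a median log2 fold change of 0.77 (SD 0.38 over members) and the 58 below 10 FPKM one of 1.01 (SD 0.48). The standard errors of single members were larger at low level, with medians of 0.09 and 0.16. By bins of WT level, the median was 1.04 from 0.5 to 2 FPKM (21 members), 1.01 from 2 to 10 FPKM (29 members), 0.81 from 10 to 50 FPKM (31 members) and 0.71 from 50 FPKM upward (13 members). In the bin from 2 to 10 FPKM all 29 members were higher in both KO libraries. As a linear ratio without a pseudocount, the medians of these bins were 2.11, 2.04, 1.75 and 1.63. Features with a symbol outside the segment also had lower medians at higher WT level. Their median log2 fold changes in the same bins were 0.073, 0.005, -0.039 and -0.088, so a fall with level was not particular to the members. The bins from 10 FPKM upward include members past *Cnbp*, where values fell back to the WT level. *Copg1*, *Hmces*, *H1fx* and *Rab7*, with log2 fold changes of -0.20, 0.04, -0.26 and 0.20, were in the bin from 50 FPKM upward. *Rpn1*, at -0.14, was in the bin below, and medians without these members are not given. The difference between members at or above 10 FPKM and those below, -0.24, was -0.020 with a pseudocount of 1, -0.040 without the filter on low values and -0.15 without WT replicate 2. It was -0.27 with a mean of at least 1 FPKM and -0.26 with a pseudocount of 0.01. Below 0.5 FPKM the pseudocount of 0.1 pulls the log2 fold change towards 0. Across the 102 tested members, log2 fold change and log2 WT level were related by r = -0.32 (Pearson) and rho = -0.33 (Spearman), and for the span of the gene these were r = -0.00 and rho = -0.06 (100 members). Without the 8 members that had a mean under 0.5 FPKM in WT, a restriction added after the data were seen, the difference was -0.24 over 94 members, r was -0.30 and rho was -0.34. These are descriptions across genes of the same libraries, WT level enters both axes of the first, and genes are not independent replicates.

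**Figure D4:**
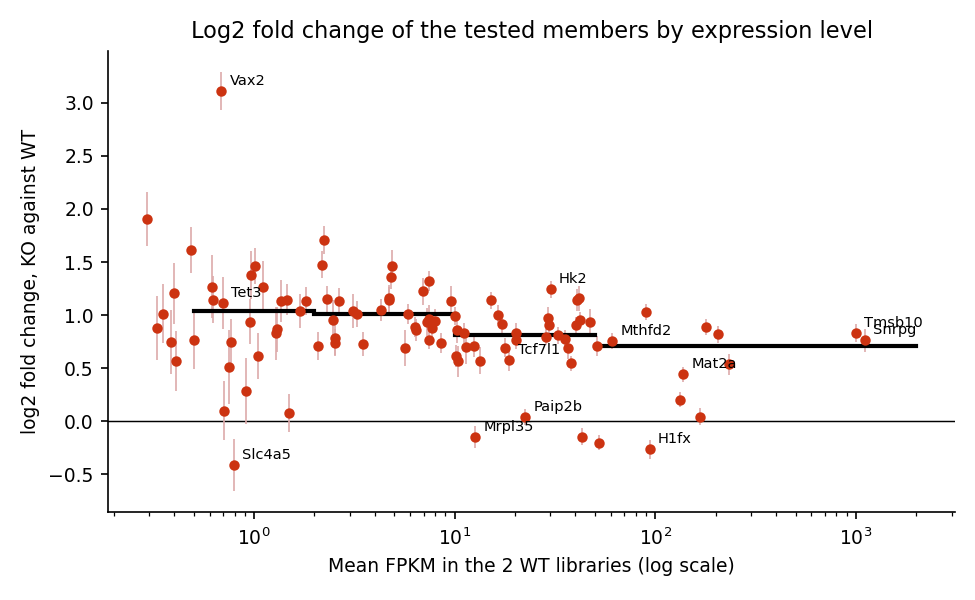
Each point is a tested member, with its mean FPKM in the 2 WT libraries (log scale) and its log2 fold change in KO (bars, standard error from limma); thick lines are the medians of members with WT levels of 0.5 to 2, 2 to 10, 10 to 50 and at least 50 FPKM. The medians were 1.04, 1.01, 0.81 and 0.71, with the members past *Cnbp* included.

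Grouped by role, the tested members had medians of log2 fold change between 0.69 and 1.21. Of 11 listed transcription factors 6 were tested, with a median of 1.21, and all 6 (*Tcf7l1*, *Vax2*, *Foxi3*, *Gata2*, *Mxd1* and *Zfp638*) were higher in both KO libraries. This order was found for 92 of the 102 tested members and for 27% of all tested features. *Foxi3* passed the filter only through its KO level. Of the listed factors under the filter, *Tlx2*, *Lbx2* and *Egr4* were higher in both KO libraries, and *Emx1* and *Figla* were not. All 8 chromatin and DNA modification genes were tested, with a median of 0.92, and *H1fx* was the exception to the higher level. The median was 1.02 for 6 sugar and glycan enzymes and 1.04 for 6 one-carbon, amino acid and cofactor enzymes. For 9 mitochondrial proteins it was 0.69, for 8 RNA and translation proteins 0.82, for 14 membrane traffic proteins 0.81 and for 5 signalling and surface proteins 1.04. The medians of the groups are descriptions, and the groups were made with earlier results of these data known.

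**Figure D5:**
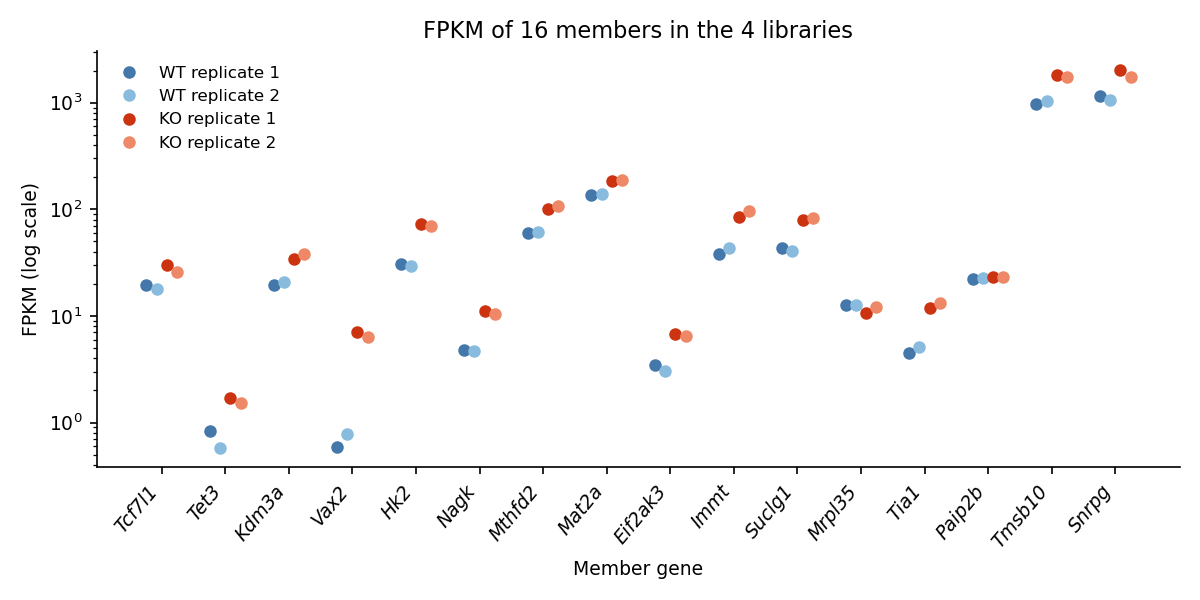
FPKM (log scale) of 16 members of the segment in each of the 4 libraries (blue, WT; red and orange, KO). Both KO points lie above both WT points for every gene shown except *Mrpl35*, and the gap is widest for *Vax2* and nearly absent for *Paip2b*.

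Genes outside the segment that belong to the pathways or families of the 4 regulators, of *Kdm3a* or of *Eif2ak3* were not used by the rule and were tested. These lists were nevertheless made with earlier results of these data known, so their counts are not independent of the data. Of 61 tested features of the outside lists, 4 were higher and 7 lower in KO at an adjusted p under 0.05 (limma with Benjamini-Hochberg adjustment over 12990 features), and their median log2 fold change was -0.07. The shares over all tested features were 6.85% higher and 5.6% lower. Among genes of the Wnt pathway and targets of TCF7L1, *Sp5*, a direct Wnt target, rose from 1.31 and 1.03 FPKM to 4.16 and 4.33 FPKM (log2 fold change 1.78, adjusted p = 0.00522), *Nr0b1*, a nuclear receptor of the pluripotency network, rose by 0.54 (adjusted p = 0.0109), and *Tfcp2l1*, a factor of naive pluripotency, rose by 0.39 (adjusted p = 0.0259). *Tdgf1*, a Nodal co-receptor, fell by 0.36 (adjusted p = 0.0322). *Nanog*, repressed by TCF7L1 in ESCs, had a log2 fold change of -0.18 (adjusted p = 0.143), *Esrrb* one of 0.25 (adjusted p = 0.200) and *Axin2*, a negative regulator of Wnt signalling, one of -0.50 (adjusted p = 0.0938). The list therefore held members that rose and members that fell. Without KO replicate 1, KO replicate 2 or WT replicate 2, the adjusted p of *Tfcp2l1* was 0.0829, 0.0629 and 0.0768 and that of *Tdgf1* 0.0945, 0.0825 and 0.123. With a library left out, the single library of its group is assumed to vary like those of the other group.

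The paralogs of the regulators lie on other chromosomes and mostly did not pass the test. For the TCF/LEF family, *Tcf7* had a log2 fold change of -0.28 (adjusted p = 0.148) and *Tcf7l2* one of 0.30 (adjusted p = 0.252), while *Lef1*, with 0.736 and 0.540 FPKM in WT and 0.155 and 0.328 FPKM in KO, was below the filter. For the TET family, *Tet1* was 38.2 and 40.6 FPKM in WT and 45.1 and 45.2 FPKM in KO (log2 fold change 0.20, adjusted p = 0.148) and *Tet2* had a log2 fold change of 0.05 (adjusted p = 0.715). FPKM of *Tet1* and *Tet2* exceeded that of *Tet3* in every library. *Hk1*, the other hexokinase above the filter, had 12.6 and 11.0 FPKM in WT and 12.9 FPKM in each KO library (log2 fold change 0.13, adjusted p = 0.438). *Mthfd2l*, the mitochondrial paralog of *Mthfd2*, was the exception and rose from 1.47 and 1.57 FPKM to 4.16 and 4.47 FPKM (log2 fold change 1.45, adjusted p = 0.00527). *Mthfd1* and *Mthfd1l* had log2 fold changes of -0.11 and -0.09, *Kdm3b* one of 0.15, and the PERK paralogs *Eif2ak1*, *Eif2ak2* and *Eif2ak4* ones between -0.07 and 0.10.

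Among genes of DNA methylation, 2 of 9 tested passed the threshold, and both were lower in KO. *Dnmt3b*, a de novo methyltransferase, was 61.3 and 62.0 FPKM in WT and 37.1 and 35.0 FPKM in KO, a fall by 0.77 on the log2 scale (adjusted p = 0.00522). Its cofactor *Dnmt3l* fell by 0.34 (adjusted p = 0.0366). The groups did not overlap for either gene. Leaving out any of KO replicate 1, KO replicate 2, WT replicate 1 and WT replicate 2 brought *Dnmt3l* above the threshold. Its log2 fold changes were then -0.37, -0.30, -0.31 and -0.36. Each such fit has a single library in 1 group, and its spread comes from the other group alone. Of 15 glycolysis genes besides *Hk2*, 1 passed, *Ldha*, which converts pyruvate to lactate, and it fell from 888 and 877 FPKM to 603 and 587 FPKM (log2 fold change -0.57, adjusted p = 0.00989).

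Of 13 tested genes of folate and serine metabolism, *Mthfd2l* rose and 2 fell. *Psat1*, an enzyme of serine synthesis, and *Gldc*, which cleaves glycine, fell by 0.38 each (adjusted p = 0.0236 and 0.0338). Without KO replicate 1, KO replicate 2 or WT replicate 2, *Psat1* did not pass the threshold, at log2 fold changes of -0.36, -0.40 and -0.38. Without KO replicate 2 or WT replicate 1, *Gldc* did not pass it, at -0.33 in each fit. These fits too have a single library in 1 group. Of 8 tested genes of the PERK and ATF4 response, *Chac1*, which degrades glutathione, fell by 0.51 (adjusted p = 0.0189) and 0 rose. Without a variance trend the adjusted p of *Chac1* was 0.0583. *Atf4* itself was 197 and 186 FPKM in WT and 195 and 188 FPKM in KO. The WT and KO values of *Atf4* overlapped.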

How the data were processed

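RNA of mouse ESCs was sequenced as 2 WT and 2 *Bmal1* KO libraries, grouped by their labels. The deposited FPKM per feature were made by the authors from reads placed on GRCm38, and their processing notes name TopHat2 2.1.1, Bowtie2 2.3.0 and Cufflinks 2.2.1. Read numbers are not part of FPKM, so library depth is unknown and counting error cannot be stated. Strand use in counting is not given in the sources used here. Starts in the files count from 0, and 1 was added.

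FPKM were compared as log2(FPKM + 0.1) over 12990 features whose mean FPKM was 0.5 or more, with limma 3.58.1 in R 4.3.3 (trended variance, Benjamini-Hochberg adjustment over all of these). A fold change on this scale understates the change of low genes. Simulated data with known changes were used to test the fit. An exact permutation test of 1 gene, 2 libraries against 2, cannot give a p under 0.333, so each adjusted p rests on the variance shared across features. Of the members, 137 matched GENCODE vM21 by symbol, 120 of them protein-coding. Promoters came from RefSeq (GRCm38.p6) by symbol. Other steps used Python 3.11.15, pandas 2.3.3, numpy 2.4.6, scipy 1.17.1 and matplotlib 3.10.9.

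The members and all gene lists were chosen with earlier results of these data known. Named genes are *Tcf7l1*, *Tet3*, *Hk2* and *Mthfd2*; members of 8 lists by role with a mean FPKM of at least 1; the 5 largest and 5 smallest log2 fold changes among members at that level; the 5 most abundant members in WT; the 5 tested features on each side of an edge; genes of 6 outside lists with an adjusted p under 0.05; and paralogs of the regulators. Other genes were named after their values were seen. A result that this rule would name is not reported here. Alternatives were a pseudocount of 1 or 0.01, no filter or a minimum mean of 1, scaling by quantiles or by the median of ratios, no variance trend, sums by symbol, the replicate number as a block, and leaving out each library. List genes that were not among the features are not analysed here.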

Additional observations from a re-analysis of the deposited data

How the results depend on the processing

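The median log2 fold change of the members, 0.88, was 0.79 without a filter and 0.77 with a pseudocount of 1, and 0.86 to 0.89 when each library was left out. The 34 members called higher became 15 with a pseudocount of 1 and were 32 to 34 with a library left out, and the 538 features called in all became 231 with that pseudocount. With a library left out 605 to 820 features were called, the most without WT replicate 1. Members with both KO values above both WT values numbered 88 to 99 with a library left out. The proximal step of 1.00 was 0.90 with a mean of at least 1 FPKM, 0.86 with a pseudocount of 1 and 0.94 to 1.06 with a library left out. The distal step of 0.34 was 0.16 without KO replicate 2 and 0.47 without WT replicate 2, the extremes when each library was left out. The difference of -0.24 between members at or above 10 FPKM and those below was -0.040 without a filter and -0.020 with a pseudocount of 1. With a library left out it was -0.30 to -0.15 (-0.15 without WT replicate 2). It was -0.27 with a mean of at least 1 FPKM and -0.26 with a pseudocount of 0.01. The size of this difference thus depends on how low values are treated. Restricted to members with at least 0.5 FPKM in WT, an alternative added after the data were seen, the difference was -0.24. Of 11 genes of the outside lists past the threshold, 5 were past it without a variance trend, 7 with quantile normalization, and 7 to 9 with a library left out (7 without KO replicate 1, KO replicate 2 or WT replicate 2). None of these results turned direction, and neither did any named gene with an adjusted p under 0.05. Of 125 named genes, 17 had values on both sides of 0 over the alternatives, with *Reep1* the 1 member among them. Over 13 alternatives, single members moved by more than the spread of their 4 library pairs in 34 of 845 cases. Such cases with a pseudocount of 1 included *Vax2* (2.18), *Foxi3* (0.86), *Gata2* (0.70), *Mxd1* (0.62) and *Tet3* (0.62), all low in WT.

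With the replicate number as a block (replicate block), 632 features and 35 members were called at an adjusted p under 0.05 and more than 2-fold. At an adjusted p under 0.05 alone, 29 outside genes passed, among them 9 of the 15 glycolysis genes against 1 without the block. The share of all tested features that passed this second threshold with the block is not given, so these counts have no background beside them. The labels do not say that equal numbers mark a shared day or culture. The differences between replicates 2 and 1 in WT and in KO were related by r = 0.071 (Pearson) and rho = 0.387 (Spearman) over 12990 features, which are not independent. Only 2 libraries per group, unknown depth and shared coordinates limit the precision of each member's value.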

Other observations

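Among features without a gene symbol, 10 lay within the bounds of the segment and 7 of them were tested. Their median log2 fold change was 0.24, with a range of -0.53 to 1.76. Markers of endoderm and mesoderm were low in all libraries. *Gata4*, the highest of them, was 0.600 and 0.561 FPKM in WT and 0.528 and 0.445 FPKM in KO. Of the T cell markers, *Cd3e* was 0.944 and 1.28 FPKM in WT and 1.35 and 1.51 FPKM in KO, while *Cd4* and *Ptprc* were at most at 0.0394 FPKM.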
